A study of Mus musculus with 4 samples.

Results

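The macrophage colony-stimulating factor receptor gene Csf1r, the gene Adgre1 of the surface protein F4/80, and 7 transcription factor genes of the macrophage lineage (Spi1, Cebpa, Maf, Irf8, Klf4, Bhlhe40 and Bhlhe41) were followed in bone marrow (BM) macrophages that had or had not engulfed apoptotic prostate cancer cells. The 9 genes were taken by symbol from the 31053 genes of the deposited tables, and each was found once. Both groups were BM macrophages of male C57BL/6J mice of 4 weeks (the methods give 4 to 6 weeks for all macrophages of the study), grown for 4 days with M-CSF (the ligand of CSF1R) at 30 ng/mL. For the efferocytic group they were co-cultured for 16–18 h, in medium with 0.25% serum, with CFSE-labelled RM1 cells killed by UV light, and F4/80+CFSE+ cells were sorted. RM1 is a prostate cancer line of the same mouse strain, transformed with Ras and Myc. The non-efferocytic group was sorted as F4/80+. The paper's discussion describes it as macrophages alone and its results as non-engulfing ones, so whether these cells met apoptotic cells is not clear. If they were cultured alone, being in contact with apoptotic cells and having engulfed them cannot be told apart. Whether M-CSF was also in the co-culture medium, and how many mice gave each library, is not clear from the sources used here. Each of 2 experiments gave 1 library per group, made with the 10X Genomics 3′ v3.1 kit, so n = 2 libraries per group throughout. The p-values by edgeR rest on the spread between 4 libraries, and edgeR steadies the spread of each gene with that of all genes tested.

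CSF1R is a receptor tyrosine kinase that binds CSF1 (M-CSF) and IL-34 and carries the survival and growth signal of the macrophage lineage. Its transcription depends on PU.1, the product of Spi1, which opens enhancers together with C/EBP factors, while IRF8, MAF and KLF4 shape the monocyte and macrophage programs built on them. BHLHE40 and BHLHE41 are closely related basic helix-loop-helix repressors that bind the E-box CACGTG, act in the circadian clock and in self-renewing tissue macrophages, and are known to be induced in hypoxia.

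A barcode was taken as a cell if it held 200 or more genes, 1000 or more UMIs (unique molecular identifiers, 1 per captured transcript) and no more than 10% mitochondrial UMIs. Experiment 1 gave 8280 cells of the non-efferocytic and 6695 of the efferocytic group, and Experiment 2 gave 13411 and 8408. Efferocytic cells were deeper, with a mean of 18670 and 18462 UMIs per cell against 12224 and 10316. The Experiment 2 non-efferocytic library stood apart by 36048 barcodes with 500 or more but under 1000 UMIs, against 1048 to 2046 in the others. The libraries of Experiment 2 shared 118 cell barcodes (0.880% and 1.40% of their cells), and the other 5 pairs shared 14 to 23. Leaving out all shared barcodes, an alternative chosen after seeing the data, changed the call of 0 of the 9 genes.

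The level of a gene in a library is its count in CPM, that is, among 1000000 UMIs of the cells. Differences were tested with edgeR on the summed counts with the experiment as a block, across 13869 genes, with Benjamini-Hochberg adjusted p-values and a threshold of 0.05. The fit scales library totals by TMM factors, while CPM and the log2 ratio of an experiment use library totals alone. A fitted log2 difference can thus lie outside the ratios of both experiments. Fitted on library totals without TMM, the median log2 difference of all genes tested was -0.12. Of all genes tested, 38.9% were called, 19.9% higher and 19.0% lower in efferocytic macrophages, which is the background for the counts of this fit. Both efferocytic libraries lay below both non-efferocytic ones in CPM for 44.7% of these genes and above them for 22.2%. These shares are the background wherever ranges are said not to overlap. Counts given per cell have a background of 49.9% higher and 4.23% lower, and those without the block one of 1285 genes higher and 1073 lower. The fit with 10% free RNA (RNA outside cells) taken off called 192 of 13115 genes higher and 125 lower. Most genes called in the reported fit thus lost their call there. Of the 9 genes, 5 were called lower (Csf1r, Adgre1, Cebpa, Irf8 and Klf4), 2 were called higher (Bhlhe40 and Bhlhe41) and 2 did not pass (Spi1 and Maf). Their median log2 difference was -0.32, beside a median of -0.018 over all genes tested. With the block left out of the fit, Csf1r (adjusted p = 0.020 by edgeR) and Bhlhe41 (adjusted p = 0.016 by edgeR) kept their calls and the other 5 lost theirs.

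The promoters of members that moved in opposite directions are shown to place the E-box that BHLHE factors bind and the shorter core ACGTG of the hypoxia response element. RefSeq promoter windows (build GRCm38.p6, 250 bases before to 50 after each start) were at hand for 4 of the 9 genes, Bhlhe41, Klf4, Irf8 and Cebpa. CACGTG, which reads the same on both strands, was present in 7.15% of all 32851 promoter windows, and ACGTG on either strand in 19.6%. Every CACGTG also holds ACGTG on both strands. The stretches printed here lie upstream of both the RefSeq and the GENCODE start, run 5′ to 3′ on the strand of the gene, and carry the match in capitals. The Bhlhe41 stretch is chr6:145865559-145865670 (minus strand), the Klf4 stretch chr4:55532476-55532725 (minus strand) and the Irf8 stretch chr8:120736108-120736357 (plus strand).
Bhlhe41: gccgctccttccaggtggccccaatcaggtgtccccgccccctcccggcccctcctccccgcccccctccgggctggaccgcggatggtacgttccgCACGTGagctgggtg
Klf4: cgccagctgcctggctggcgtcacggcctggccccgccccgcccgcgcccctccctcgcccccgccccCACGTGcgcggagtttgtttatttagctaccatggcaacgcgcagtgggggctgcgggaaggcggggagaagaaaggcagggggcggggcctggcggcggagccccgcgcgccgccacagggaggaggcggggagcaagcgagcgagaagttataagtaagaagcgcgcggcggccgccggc
Irf8: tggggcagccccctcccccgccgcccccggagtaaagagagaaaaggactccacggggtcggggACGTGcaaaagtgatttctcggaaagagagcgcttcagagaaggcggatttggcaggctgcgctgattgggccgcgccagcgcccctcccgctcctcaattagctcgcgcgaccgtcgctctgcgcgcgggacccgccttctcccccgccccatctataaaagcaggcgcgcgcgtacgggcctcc
Bhlhe41 and Klf4 each held 1 E-box, beginning 153 and 182 bases before the RefSeq start. Irf8 held no E-box and 1 ACGTG, 186 bases before the start, in the printed window, and neither in its other RefSeq window, at a start farther downstream. The Cebpa window held neither. The E-box was thus present in Bhlhe41, called higher in efferocytic macrophages, and in Klf4, called lower. The Klf4 call was lost per cell and without the block. With 1 such promoter on each side, nothing is read from these letters about direction.

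In the annotation of the build that the files use (GRCm38, GENCODE release 21), Csf1r lies on chromosome 18 and Adgre1 at chr17:57358691-57483527. Spi1 lies at chr2:91082390-91115756, Cebpa at chr7:35119293-35121928, Maf at chr8:115682942-115707794, Irf8 at chr8:120736358-120756694 and Klf4 at chr4:55527143-55532466. Bhlhe40 lies at chr6:108660629-108666925 and Bhlhe41 at chr6:145858243-145865558, on the same chromosome. All 9 are protein-coding. Irf8 overlaps Gm20388, a gene model on the same strand that is also in the deposited tables, so reads could be split or dropped between them and its level is uncertain. Csf1r, Cebpa, Maf and Bhlhe40 overlap a counted gene on the opposite strand.

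Csf1r had the largest decrease of the 9 genes. Its level was 849 CPM in the non-efferocytic and 364 CPM in the efferocytic library of Experiment 1, and 732 and 299.9 CPM in those of Experiment 2. Both efferocytic libraries lay far below both non-efferocytic ones, and the ranges did not overlap (44.7% of all genes tested had this order). The means were 790.4 ± 83.2 and 332 ± 45.0 CPM (SD, n = 2). The fitted log2 difference, on the TMM scale, was -1.15 ± 0.11 (SE, 95% interval -1.40 to -0.90, adjusted p = 0.000265 by edgeR). On library totals without TMM it was -1.26. The log2 ratio was -1.22 in Experiment 1 and -1.29 in Experiment 2. Without the block it was -1.14, and DESeq2 and each alternative choice of cells also called it lower. When 1 library was left out in turn, the Csf1r difference ran from -1.32 to -0.97. Such a fit leaves 1 library in a group, so only the size of a difference is given from it for the 9 genes. RNA outside cells, read from barcodes with 10 to 100 UMIs, held Csf1r at 427 and 194 CPM in Experiment 1 and 389 and 396 CPM in Experiment 2 (non-efferocytic, then efferocytic). In the Experiment 2 efferocytic library that level was above the level in the cells. With 10% of the UMIs of each library taken off in this profile, Csf1r was called lower at adjusted p = 0.049 by edgeR.

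**Figure D1:**
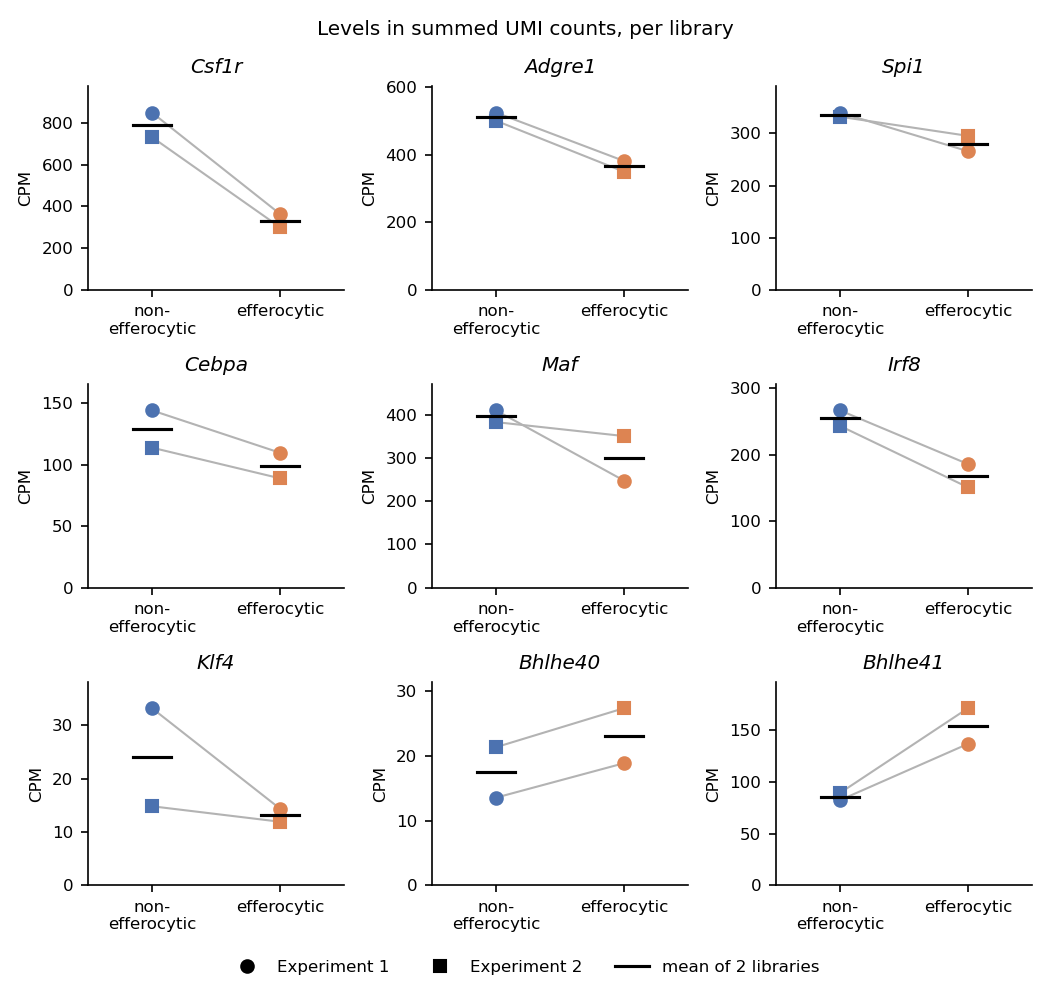
Level of each of the 9 genes in each library, in CPM of all UMIs in cells (each panel has its own vertical axis starting at 0), with the non-efferocytic and efferocytic libraries as points joined by a line within each experiment and the mean of 2 libraries as a bar. Csf1r went from 849 to 364 and from 732 to 299.9 CPM and Bhlhe41 from 82.1 to 136 and from 89.0 to 171 CPM, while the lines for Maf and Klf4 differed in slope between experiments.

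Adgre1 encodes F4/80, the adhesion receptor on which both groups were sorted, so its level was under selection in every library. It measured 525 and 382 CPM in Experiment 1 and 501 and 349.7 CPM in Experiment 2 (non-efferocytic, then efferocytic). Both efferocytic libraries were lower and the ranges did not overlap. The log2 difference was -0.38 ± 0.10 (SE, adjusted p = 0.0218 by edgeR). It did not pass without the block (-0.38, adjusted p = 0.072 by edgeR) or with 10% free RNA taken off (-0.41, adjusted p = 0.095 by edgeR). With 1 library left out it ran from -0.48 to -0.28. Per cell the direction turned, since efferocytic cells held more UMIs in all: 6.42 and 7.12 Adgre1 UMIs per cell in Experiment 1, and 5.17 and 6.46 in Experiment 2.

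Spi1, the gene of PU.1, was not called. Its level was 339.8 and 266 CPM in Experiment 1 and 332 and 295 CPM in Experiment 2 (non-efferocytic, then efferocytic, as in all pairs of values that follow). Both efferocytic libraries lay below both non-efferocytic ones, as was so for 44.7% of all genes tested. The log2 difference was -0.15 ± 0.10 (SE, 95% interval -0.38 to 0.07, adjusted p = 0.236 by edgeR). A decrease as large as that of Csf1r lay outside this interval, which leans on the spread of all genes tested and not on Spi1 alone. Spi1 passed with library totals as the scale (-0.26, adjusted p = 0.035 by edgeR) and, in the opposite direction, with cells as the scale (0.46, adjusted p = 0.024 by edgeR).

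Cebpa, the gene of the myeloid factor C/EBP alpha, measured 144 and 109.8 CPM in Experiment 1 and 114 and 89.0 CPM in Experiment 2. The lowest non-efferocytic value (114 CPM) was close to the highest efferocytic one (109.8 CPM), and the ranges did not overlap. The log2 difference was -0.27 ± 0.08 (SE, adjusted p = 0.0336 by edgeR), and it was lost with DESeq2 (adjusted p = 0.061) and without the block (adjusted p = 0.31 by edgeR). It was also lost with 10% free RNA taken off (-0.29, adjusted p = 0.094 by edgeR). With 1 library left out, the difference was -0.081 and -0.42 without the non-efferocytic library of Experiment 1 and 2, and -0.46 and -0.084 without the efferocytic one. The log2 ratios of the experiments were -0.39 and -0.36.

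Irf8, a factor of monocyte and dendritic cell development, was also lower. It measured 267 and 186 CPM in Experiment 1 and 244 and 151 CPM in Experiment 2. Both efferocytic libraries were lower without overlap, with log2 ratios of -0.52 and -0.69. The log2 difference was -0.50 ± 0.10 (SE, adjusted p = 0.00634 by edgeR), and without the block the adjusted p was 0.080 by edgeR. With 1 library left out, the difference ran from -0.68 to -0.31. In the Experiment 2 efferocytic library the RNA outside cells held Irf8 at 255 CPM, above its level in the cells, and with 10% free RNA taken off Irf8 was not called (-0.59, adjusted p = 0.085 by edgeR).

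Maf, which encodes the c-MAF factor of differentiated macrophages, had unlike ratios in the experiments. It measured 409.6 and 247 CPM in Experiment 1 but 382 and 350.2 CPM in Experiment 2. The ranges did not overlap, and the efferocytic libraries lay farther apart than the non-efferocytic ones. The log2 ratios were -0.73 and -0.13, and the fitted difference was -0.32 ± 0.13 (SE, 95% interval -0.63 to -0.0099, adjusted p = 0.0934 by edgeR), so Maf was not called. It was called lower with library totals as the scale (adjusted p = 0.0049 by edgeR), in genes of at least 10 CPM (adjusted p = 0.039 by edgeR) and in thinned cells (adjusted p = 0.027 by edgeR). It was -0.10 without the Experiment 1 and -0.53 without the Experiment 2 efferocytic library.

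Klf4, a zinc finger factor of monocyte differentiation, rested on Experiment 1. It measured 33.2 and 14.4 CPM there and 14.8 and 11.9 CPM in Experiment 2. The Experiment 1 non-efferocytic library stood above the other 3, and the highest efferocytic value lay just below the lowest non-efferocytic one. The log2 ratios were -1.21 and -0.31, and the fitted difference was -0.66 ± 0.17 (SE, adjusted p = 0.0166 by edgeR). Without the Experiment 1 non-efferocytic library the difference was -0.057, and without that of Experiment 2 it was -1.22. Without the efferocytic library of Experiment 1 it was -0.93, and without that of Experiment 2 it was -0.59. With the block left out it was -0.76 and not called (adjusted p = 0.21 by edgeR). RNA outside cells held more Klf4 than the cells in every library, at 215 and 318 CPM in Experiment 1 and 58.0 and 55.8 CPM in Experiment 2. The Experiment 1 non-efferocytic library also had the highest sum of the 12 immediate early and heat shock genes, 1550 CPM against 466 to 703 CPM in the other 3. With 10% free RNA taken off, Klf4 stood at -3.41 and was not called (adjusted p = 0.41 by edgeR), its count being set to 0 in the Experiment 1 efferocytic library. The part of the immediate early genes in the Klf4 value was not tested.

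**Figure D2:**
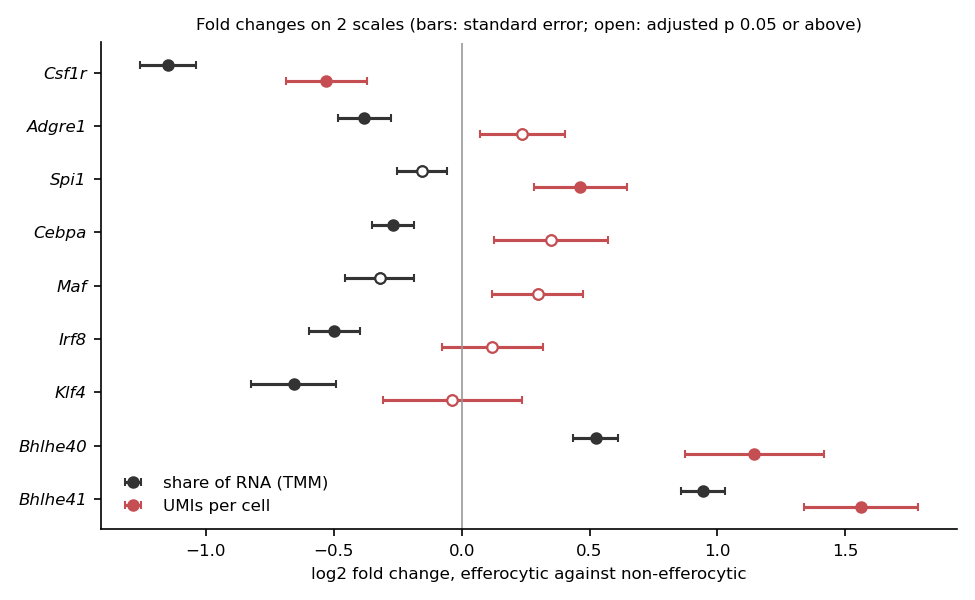
Log2 difference (efferocytic minus non-efferocytic) of each gene from edgeR with the experiment as a block, with bars of 1 SE, as a share of RNA (black, TMM) and per cell (red), filled where the adjusted p was under 0.05. Csf1r (-1.15 and -0.53), Bhlhe40 (0.52 and 1.14) and Bhlhe41 (0.94 and 1.56) lie on the same side of 0 on both scales, while Adgre1, Spi1, Cebpa, Maf and Irf8 change sign.

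Bhlhe41 (also called DEC2) had the largest increase of the 9 genes. It measured 82.1 and 136 CPM in Experiment 1 and 89.0 and 171 CPM in Experiment 2. Both efferocytic libraries lay well above both non-efferocytic ones, as was so for 22.2% of all genes tested. The means were 85.6 ± 4.90 and 154 ± 24.3 CPM (SD, n = 2). The fitted log2 difference, on the TMM scale, was 0.94 ± 0.09 (SE, 95% interval 0.74 to 1.14, adjusted p = 0.00023 by edgeR). On library totals without TMM it was 0.84. Bhlhe41 was also called higher in all 17 alternative fits on the 4 libraries, with values from 0.84 to 1.56. With 10% free RNA taken off, the call was close to the threshold (0.96, adjusted p = 0.049 by edgeR). When 1 library was left out in turn, the difference ran from 0.82 to 1.07.

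Bhlhe40 (DEC1), its paralog, was sparse in these cells. It measured 13.6 and 18.9 CPM in Experiment 1 and 21.4 and 27.4 CPM in Experiment 2. The groups overlapped, because the Experiment 2 non-efferocytic library was above the Experiment 1 efferocytic one, while within each experiment the efferocytic library was higher. The log2 difference was 0.52 ± 0.09 (SE, 95% interval 0.32 to 0.72, adjusted p = 0.00279 by edgeR). Without the block it did not pass (0.51, adjusted p = 0.22 by edgeR). Leaving out the non-efferocytic library of Experiment 1 lowered it to 0.22 and that of Experiment 2 raised it to 0.88. Without the efferocytic library of Experiment 1 it was 0.72, and without that of Experiment 2 it was 0.26. RNA outside cells held Bhlhe40 at 42.5 to 104.5 CPM, above the cells in every library. With 10% of the UMIs of each library taken off in this profile, the Bhlhe40 difference was 0.48 and was not called (adjusted p = 0.063 by edgeR). That fit called 192 genes higher and 125 lower in all.

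The groups also differed in UMIs per cell, so the same counts were read per cell. Scaled to the number of cells, the median log2 difference of all genes tested was 0.60, with 49.9% called higher and 4.23% called lower. Csf1r was called lower on this scale too (-0.53, adjusted p = 0.0034 by edgeR), at 10.4 and 6.79 UMIs per cell in Experiment 1 and 7.55 and 5.54 in Experiment 2. Bhlhe41 went from 1.00 to 2.55 and from 0.918 to 3.15 UMIs per cell (1.56, adjusted p = 1.7e-10 by edgeR), and Bhlhe40 from 0.166 to 0.353 and from 0.221 to 0.506 (1.14, adjusted p = 0.00022 by edgeR). Klf4 stood at -0.036 (adjusted p = 0.91 by edgeR). Adgre1 (0.24), Cebpa (0.35), Maf (0.30) and Irf8 (0.12) had positive values that did not pass, and Spi1 was called higher (0.46). These 6 values were all below the median of all genes on that scale. Csf1r, Bhlhe40 and Bhlhe41 were the members called in the same direction on both scales.

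**Figure D3:**
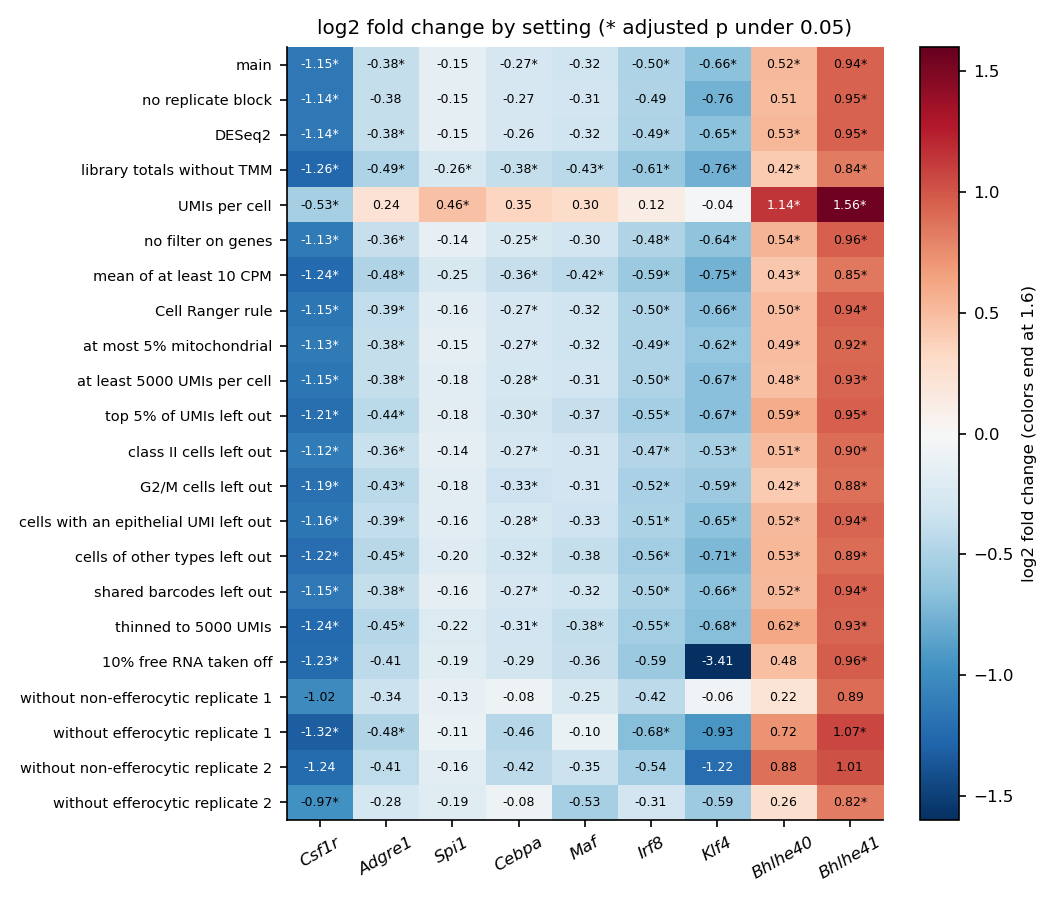
Log2 difference (efferocytic minus non-efferocytic) of each gene, by color and as a printed value, in the reported fit and under each of 21 alternatives, with an asterisk where the adjusted p was under 0.05 (replicate numbers are experiments). On all 4 libraries Csf1r stayed between -1.26 and -0.53 and Bhlhe41 between 0.84 and 1.56, while Adgre1, Spi1, Cebpa, Maf and Irf8 were above 0 per cell.

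To compare shares of cells at equal depth, each cell was thinned to 5000 UMIs. Shallower cells were left out, 1099 and 544 in Experiment 1 and 3404 and 505 in Experiment 2. At least 1 Csf1r UMI was found in 95.4% and 78.0% of thinned cells in Experiment 1 and in 93.5% and 73.7% in Experiment 2. Among cells with a Csf1r UMI the count was 4.87 and 2.49 UMIs per positive cell in Experiment 1 and 4.25 and 2.16 in Experiment 2. Both quantities were lower in the efferocytic libraries. They count cells with a UMI and not cells that express the gene, since RNA outside cells also held Csf1r and no cells free of it were found to give a background share. Unthinned, the shares were 95.4% and 91.3% in Experiment 1 and 88.6% and 91.1% in Experiment 2.

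Among the other members, thinned cells with Irf8 went from 71.4% to 60.4% and from 68.6% to 52.8%. Those with Maf went from 78.4% to 65.8% in Experiment 1 and from 75.9% to 74.1% in Experiment 2. Those with Klf4 went from 14.6% to 6.44% and from 6.19% to 5.29%. The experiments thus differed for Maf and Klf4 as they did in CPM, while shares differed by -7.54 and -7.12 percentage points for Adgre1, by -9.46 and -3.23 points for Spi1 and by -7.28 and -6.80 points for Cebpa. The shares of Cebpa and Klf4 overlapped between the groups, the lowest non-efferocytic share being under the highest efferocytic one. Thinned cells with Bhlhe41 went from 29.3% to 46.0% and from 32.1% to 54.1%, and those with Bhlhe40 from 5.40% to 9.01% and from 7.82% to 11.6%. Unthinned, the mean difference was positive for Adgre1, Spi1, Cebpa, Maf and Irf8 (4.58, 7.29, 9.20, 5.15 and 4.26 points), the deeper cells being the efferocytic ones.

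**Figure D4:**
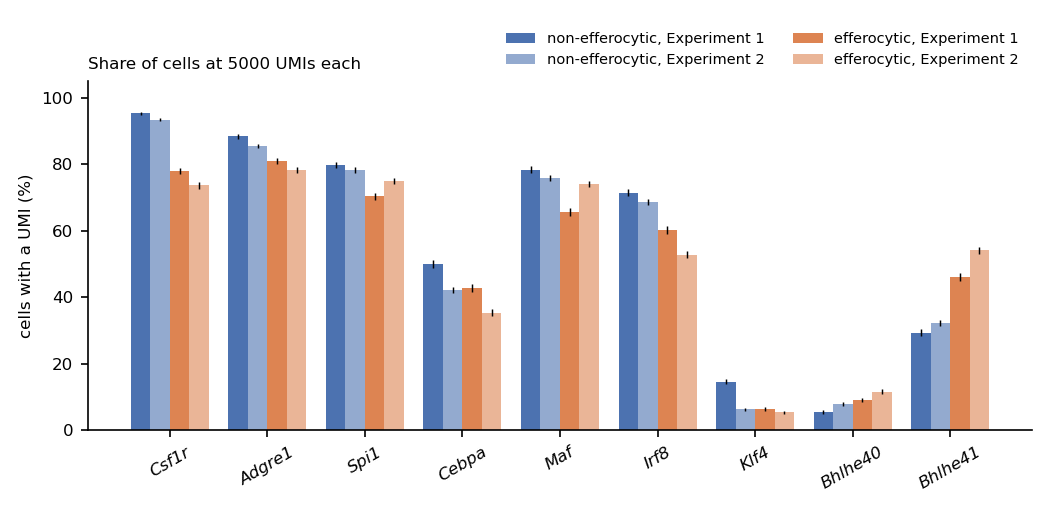
Share of cells with at least 1 UMI of each gene after thinning to 5000 UMIs per cell, in percent, for each library, with exact 95% binomial intervals that cover counting error only. Csf1r lies at 95.4% and 93.5% in the non-efferocytic and 78.0% and 73.7% in the efferocytic libraries, and Bhlhe41 at 29.3% and 32.1% against 46.0% and 54.1%.

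Cells with at least 3 UMIs of the fibroblast list, which should lack most of these genes, were few, 48 and 26 in Experiment 1 and 203 and 34 in Experiment 2. Thinned, 69.6% and 47.6% of them held Csf1r in Experiment 1 and 77.0% and 29.6% in Experiment 2, so this gate did not give cells free of macrophage RNA. Their median depths were 33630, 26852, 9934 and 32633 UMIs (non-efferocytic and efferocytic of Experiment 1, then of Experiment 2), against 11119, 17164, 9600 and 17464 in the remaining cells. Relative to the remaining cells of their library, their Csf1r level was 0.311 to 0.638 times and their Irf8 level 0.177 to 0.609 times as high. Klf4 was 1.75 to 4.50 times as high in these cells, and Bhlhe40 ranged from 0.675 to 1.55 times. The 7 fibroblast genes summed to 190.2 and 61.8 CPM in Experiment 1 and to 163 and 69.4 CPM in Experiment 2. An alternative left out cells with at least 3 UMIs of the neutrophil, fibroblast, B cell, T or NK cell, mast cell or erythroid list. Each of the 9 genes then had the same direction and call. Cells with monocyte, dendritic cell or osteoclast markers were not left out by it.

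Cells with at least 2 UMIs of the MHC class II genes H2-Aa, H2-Ab1 and H2-Eb1, which present antigen, made up 11.2% and 12.9% of non-efferocytic and 1.76% and 2.46% of efferocytic cells. The level of Csf1r was higher inside this gate in each library, at 943 against 834 CPM and 781 against 721 CPM without efferocytosis, and at 471 against 361 CPM and 350.1 against 299 CPM after it. The lower Csf1r level of the efferocytic libraries was thus present on both sides of the gate. Bhlhe41 was lower inside it in each library, at 0.679 to 0.772 times the level outside. Maf was 0.641 to 0.983 times as high inside, and Klf4 0.965 to 1.79 times. With class II cells left out of the sums, each of the 9 genes had the same direction and call.

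Cells with at least 2 UMIs of the 12 G2/M genes of dividing cells made up 27.7% and 24.0% of non-efferocytic and 23.3% and 28.9% of efferocytic cells. This gate, like that for class II, counts UMIs in unthinned cells, so deeper cells can pass it more easily. Median depths inside and outside it were 13204 and 10365 UMIs (non-efferocytic) and 22469 and 15782 (efferocytic) in Experiment 1. In Experiment 2 they were 12413 and 8410.5, and 19627 and 16684. The groups differed in depth, so the gate does not give shares of dividing cells. Inside the gate Csf1r was at 0.942 to 1.03 times its level in the remaining cells. Bhlhe41 was at 0.773 to 0.883 times and Bhlhe40 at 0.577 to 0.867 times their levels outside, lower in each library. Klf4 was at 1.04 to 1.48 times and Cebpa at 0.782 to 0.899 times. Leaving these cells out changed the call of 0 of the 9 genes.

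Across thinned cells within a library, the genes most like each member were ranked by Pearson's r of log counts over 6510 genes found in at least 5% of cells, averaged over the 4 libraries. The points share the library and the fixed depth, genes at higher levels can reach higher r, and no test was made. Csf1r was most like Selenop, a selenium carrier (mean r 0.40), C1qb, a complement subunit (0.32), and Stab1, a scavenger receptor (0.31). Adgre1 was most like Selenop (0.38), Stab1 (0.30) and C1qc (0.28), and Maf most like Selenop (0.42), Serinc3 (0.34) and Stab1 (0.33). Irf8 was also most like Selenop (0.17), followed by Apoe (0.13) and Serinc3 (0.12). Csf1r, Adgre1, Maf and Irf8 thus shared their nearest gene.

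Bhlhe40 was most like Atp6v0d2, a proton pump subunit (0.16), Mmp12, the macrophage elastase (0.15), and Cstb (0.13). Bhlhe41 was most like Lhfpl2 (0.14), Gpnmb, a glycoprotein of phagocytic macrophages (0.13), and Fabp4, a fatty acid carrier (0.12). The nearest genes of both BHLHE factors were thus other than those of Csf1r. Klf4 reached 0.1 with 1 gene, Ero1l (0.10), and Spi1 and Cebpa with 0 genes. Among the members, r between Csf1r and Adgre1 ran from 0.178 to 0.351 over the 4 libraries and r between Csf1r and Maf from 0.152 to 0.312. Between Csf1r and Bhlhe40 it was negative in each library, from -0.145 to -0.071, and between Csf1r and Bhlhe41 from -0.104 to -0.053. Bhlhe40 and Bhlhe41 had r of 0.051 to 0.096 with each other, and in counts this sparse such values describe little.

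**Figure D5:**
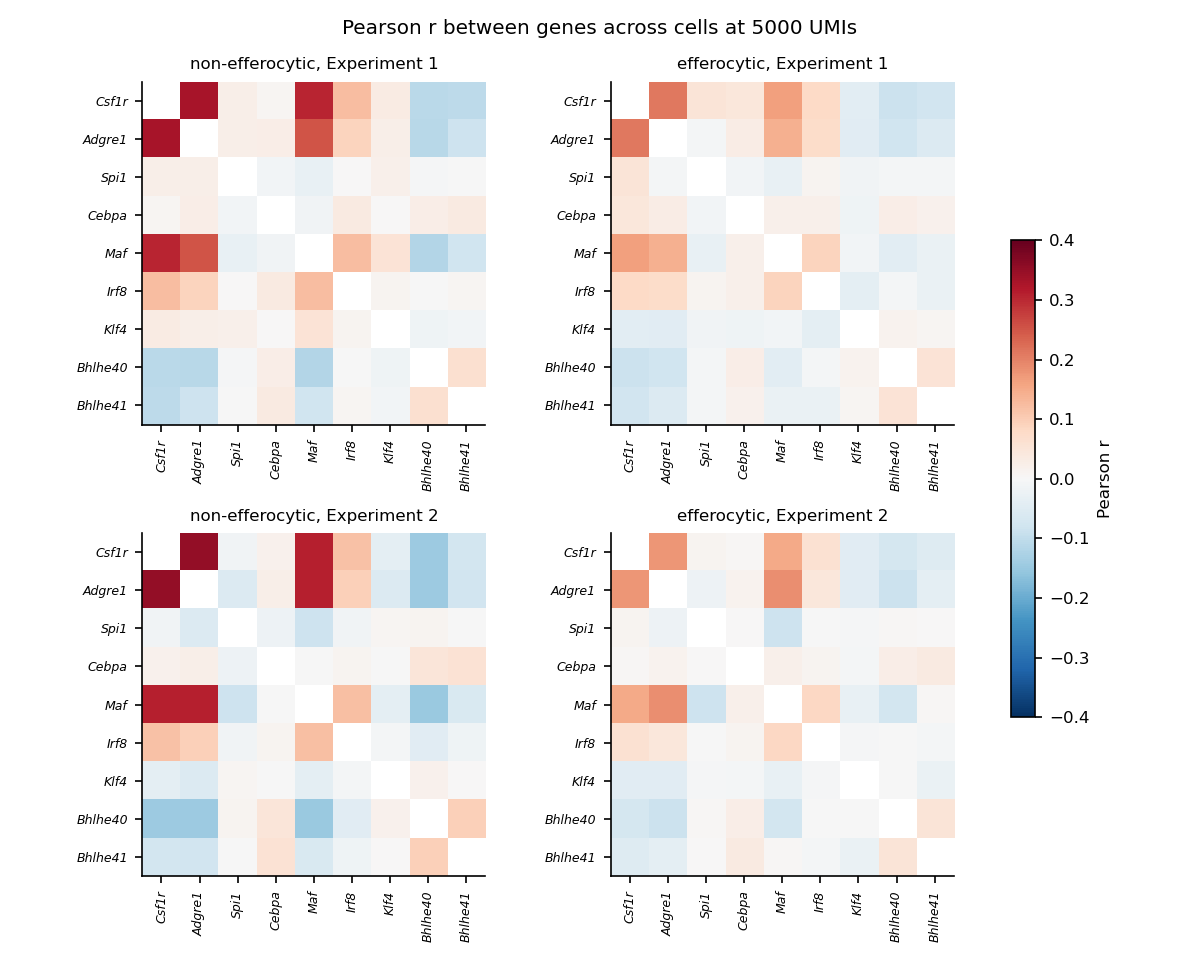
Pearson's r between members across cells thinned to 5000 UMIs, 1 panel per library, with the color scale giving r and the diagonal left blank. Csf1r, Adgre1 and Maf form the block of highest r (Csf1r with Adgre1 0.178 to 0.351), and Bhlhe40 has negative r with Csf1r in every library.

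Of the ligands and signalling partners of CSF1R, 16 of the 24 tested were not called. Of the rest 2 were higher and 6 lower (8.33% and 25% of the list, beside 19.9% and 19.0% of all genes), with a median log2 difference of -0.16. Csf1, the ligand itself, fell from 4.48 ± 0.049 to 1.49 ± 0.374 CPM (SD, n = 2, log2 difference -1.49, adjusted p = 0.000423 by edgeR). The transcript of the other ligand, Il34, was not called (-0.48). The E3 ubiquitin ligase gene Cblb rose from 34.5 ± 3.15 to 67.0 ± 9.97 CPM (1.06, adjusted p = 8.97e-05 by edgeR), and Plcg2 was also called higher. Socs3, a feedback inhibitor of cytokine signals (-1.68), and Fgr, a Src-family kinase (-0.68), were among the genes called lower. Grb2 (0.27) and Cbl (0.20) did not pass, nor did Tyrobp, the adaptor DAP12, at 0.00040. Per cell 10 of the 24 were higher and 2 lower, and without the block 1 was higher and 2 lower.

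Of 6 tested subunits of receptors for other growth factors of blood cells, 0 were higher and 3 were lower, with 1 lower without the block, 1 with DESeq2, and 3 higher and 1 lower per cell. Csf3r, the G-CSF receptor of neutrophils, fell from 41.8 ± 2.00 to 15.4 ± 6.73 CPM (SD, n = 2, log2 difference -1.40, adjusted p = 0.000995 by edgeR), beside a neutrophil list that was also lower. Il3ra fell by 0.24 on the log2 scale, which turned to 0.37 per cell, and Kit was called lower at a level under 1 CPM. The GM-CSF receptor genes Csf2ra (0.07), Csf2rb (-0.09) and Csf2rb2 (0.02) were not called.

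Among 29 other myeloid transcription factors, 1 was called higher and 21 lower, with a median of -0.44, beside 19.0% of all genes called lower. Egr1, an early growth response factor, fell from 10.7 ± 0.916 to 1.79 ± 1.17 CPM (SD, n = 2, log2 difference -2.61, adjusted p = 0.000395 by edgeR). The C/EBP genes Cebpe (-1.56) and Cebpd (-1.03) and the interferon regulatory factor gene Irf4 (-0.97) were lower as well, together with Cebpb and Spic. Id2, an inhibitor of basic helix-loop-helix factors, was higher (0.74). Without the block 0 were called higher and 11 lower, and per cell 4 were higher and 4 lower, with a median of 0.18 beside the 0.60 of all genes.

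Of 23 surface and secreted genes of macrophages and monocytes, 5 were higher and 9 lower. Cx3cr1, the fractalkine receptor, fell from 3.70 ± 1.47 to 0.435 ± 0.233 CPM (SD, n = 2, log2 difference -3.01), and Clec4a1 (-1.48) and Lyz1 (-0.95) were also lower. Msr1, the scavenger receptor A, rose from 42.2 ± 0.525 to 78.8 ± 23.7 CPM (0.98, adjusted p = 0.00102 by edgeR), and Cd68 (0.63), Itgax, Lgals3 and Cd200r1 were also called higher. Mrc1 (-0.11), Itgam (-0.15) and Siglec1 (-0.20) did not pass. The summed level of the list overlapped between the groups but was lower after efferocytosis within each experiment. It was 51650 and 48524 CPM in Experiment 1 and 47951 and 43407 CPM in Experiment 2. Without the block 4 were higher and 3 lower, and per cell 10 were higher and 3 lower. As a check of the label, a list of 9 macrophage markers was read, which shares genes with this list (Cd68 and Itgam among them). Each of the 9 markers was at 10 CPM or more in every library. Their summed level was 39894 and 32239 CPM in Experiment 1 and 34275 and 24301 CPM in Experiment 2.

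The circadian clock genes, among which BHLHE40 and BHLHE41 act as repressors, were mostly lower. Of 15 tested, 1 was higher and 10 were lower, with a median of -0.55. Nfil3 (-1.18), Per3 (-0.82), Nr1d1 (-0.70) and Ciart (-0.69), all genes of loops that feed back on the clock, were called lower, and Cry1, a repressor of the same loops, was higher (0.53). Clock (0.12) and Rora (0.12) did not pass. Without the block 5 were lower and 1 higher, and per cell 1 was lower and 3 were higher. Sampling hours are not given in the sources used here, so the hour of harvest and the group cannot be told apart.

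Immediate early and heat shock genes, which respond fast to growth factors or to handling of cells, were lower in 9 of 12 cases (the heat shock gene Hspa1b among them), with a median of -1.16. Nr4a1 (-2.27), Ier3 (-2.23), Zfp36 (-1.70) and Fosb (-1.69) were lower in the fit with the block. The non-efferocytic libraries differed widely between experiments, as for Ier3 at 90.9 ± 64.8 CPM (SD, n = 2), and without the block 2 of the 12 were called lower. The summed level was 1550 and 658 CPM in Experiment 1 and 703 and 466 CPM in Experiment 2. Dropping the Experiment 1 non-efferocytic library brought the list median to -0.23, and Fosb reversed to 0.37. Dropping any other library gave medians from -1.79 to -0.99. The size of the list median thus rested largely on the Experiment 1 non-efferocytic library.

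Markers of other cell types moved with the groups. Beyond the fits that left out cells, none of which removed monocytes by their markers, their part in the results was not tested. MHC class II genes were lower in 7 of 7 cases (median -3.40), led by Ciita (-3.77), H2-Ab1 (-3.55), H2-Eb1 (-3.55) and H2-Aa (-3.40). Neutrophil markers were lower in 9 of 10 (Camp -2.19, Ltf -2.17, Retnlg -2.05, Ngp -1.99), with summed levels of 3062 and 968 CPM in Experiment 1 and of 3355 and 725 CPM in Experiment 2. Monocyte genes were lower in 6 of 6 (Ccr2 -2.56, Ly6c2 -1.61, Plac8 -1.36, Vcan -1.26), at sums of 71.4 to 79.8 and 16.8 to 26.8 CPM. Fibroblast genes were lower in 4 of 7 (Col1a1 -1.49, Col1a2 -1.42, Sparc -1.32, Col3a1 -0.76), and in 0 of 7 without the 5% of cells with the most UMIs, where their median went from -0.85 to -0.015. With 10% free RNA taken off, the genes called lower were 0 of 7 for fibroblasts, 2 of 10 for neutrophils and 0 of the 4 tested for monocytes. The medians of these lists were then farther from 0, at -1.55, -2.33 and -4.69, and over all genes that fit called 192 higher and 125 lower. The lists of dendritic cells (2 of 3 lower), B cells (2 of 3, Ebf1 -0.69 and Cd79b -0.53) and T or NK cells (1 of 5, Nkg7 -1.10) summed to under 10 CPM in each library. The lists of erythroid cells and of mast cells, basophils or eosinophils had 0 of 3 and 0 of 1 tested genes called. In thinned cells 3 of 3 erythroid genes were higher, as were 2 of 3 in cells of at least 5000 UMIs and 2 of 3 scaled to UMIs per cell. The erythroid sum was 43.8 and 46.3 CPM in Experiment 2 and under 1 CPM in Experiment 1. The sum of the 6 mast cell, basophil or eosinophil genes was 7.71 CPM in the Experiment 2 non-efferocytic library and under 1 CPM in the other 3, and with no gene filter 2 of the 5 then tested were lower. Of the osteoclast list Ctsk rose (0.61) and Dcstamp was called lower, and the G2/M list had 2 higher (Ccnb1 0.52, Cdk1 0.46) and 3 lower (Ube2c -0.86 and Ccnb2 -0.70 among them). The G2/M counts turned to 5 higher and 0 lower per cell, to 0 and 1 without the block and to 4 and 2 with cells of other types left out. The 7 epithelial genes summed to 0.188 and 0.0960 CPM in Experiment 1 and 10.1 and 8.57 CPM in Experiment 2, and 0 of 7 were called. The study describes RM1 as fibroblast-like, so these genes may be low in it and were no measure of RM1 RNA. RM1 cells are of the same mouse strain, so transcripts of the 9 genes from engulfed cells and from macrophages cannot be told apart by sequence.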

How the data were processed

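Transcripts of sorted BM macrophages were measured by scRNA-Seq in 4 libraries, 1 per group in each of 2 experiments. The files that the authors deposited hold UMI counts of each gene in each barcode, neither normalized nor filtered for cells, from Cell Ranger on mm10. The methods and the file headers of Experiment 1 name version 3.0.0, and the headers of Experiment 2 name 3.1.0, so the version differs with the experiment and not with the group.

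The thresholds of the methods for cells were applied to unfiltered barcodes, without the cell calling of Cell Ranger that would come first. Its basic rule, a UMI minimum set at 10% of a high percentile (99) among the 10000 deepest barcodes, was run as an alternative. It leaves 7549 and 10615 non-efferocytic and 6158 and 7921 efferocytic cells (Experiment 1, then 2), and changed the call of 0 of the 9 genes. Total UMIs in cells were 101216659 (non-efferocytic, Experiment 1), 124997895 (efferocytic, Experiment 1), 138349389 (non-efferocytic, Experiment 2) and 155224183 (efferocytic, Experiment 2), and 3 counts, the limit that a count of 0 allows, were worth 0.0193 to 0.0296 CPM. UMI counts were summed per library and fitted in R 4.3.3 with edgeR 4.0.16 (quasi-likelihood, TMM, filterByExpr). The experiment was a block because the groups were compared within experiments. With the block, 1 residual degree of freedom remains. The pairing comes from the label for the experiment, and libraries of 1 experiment deviated together from their group means (correlation 0.67 across 8623 genes of at least 5 CPM). DESeq2 1.42.0, other scalings, gene filters, cell choices, removal of free RNA and leaving out each library were alternatives. The scripts were tested on simulated data. Doublets were not called, and an alternative left out the 5% of cells with the most UMIs. Intervals of shares and of levels in a library cover counting error only. Those of log2 differences come from a standard error derived from edgeR output, with degrees of freedom that edgeR largely borrows across genes. This SE is the absolute log2 difference divided by the square root of its quasi-likelihood F statistic.

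The members and gene lists (194 genes in 18 lists) were chosen with earlier results of these data known. Named were all 9 members, the 4 called genes of each list with the largest changes among those of at least 1 CPM, and up to 3 genes most like each member at a mean r of at least 0.1. Other genes of the lists were named after their values were seen. No list was given a test of its own. Promoters and their coordinates are from RefSeq (GRCm38.p6), gene positions from GENCODE.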

Additional observations from a re-analysis of the deposited data

How the results depend on the processing

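Of 153 refits of the 9 genes on all 4 libraries, 132 kept direction and call and 5 reversed. Of those that kept direction only, 12 lost the call and 4 gained one. Among the reversed fits, all per cell, Adgre1, Cebpa and Irf8 lost their calls as well, and Spi1 gained one. Most calls rested on the block. Without the replicate block the log2 differences of the genes that lost their call were -0.38 (Adgre1), -0.27 (Cebpa), -0.49 (Irf8), -0.76 (Klf4) and 0.51 (Bhlhe40), and 1285 genes were called higher and 1073 lower, against 2761 and 2636 with it. DESeq2 gave -0.26 for Cebpa without a call, and called 1971 genes higher and 1418 lower. Library totals without TMM called Spi1 (-0.26) and Maf (-0.43), with 1847 genes higher and 3700 lower. Scaled to UMIs per cell, Adgre1 (0.24), Spi1 (0.46), Cebpa (0.35), Maf (0.30) and Irf8 (0.12) reversed, Klf4 came to -0.036 without a call, and 6921 genes were higher and 586 lower. That scale adds the depth per cell, by construction. With genes of at least 10 CPM, 1473 were higher and 1553 lower of the 7097 tested, and Maf was called (-0.42), as it was in thinned cells (-0.38). With 10% free RNA taken off, 192 genes were higher and 125 lower, and Adgre1 (-0.41), Cebpa (-0.29), Irf8 (-0.59), Klf4 (-3.41) and Bhlhe40 (0.48) lost their calls. For Klf4 the subtraction exceeded its count in a library, which set it to 0. The cause of the other changes was not tested.

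With 1 library left out and no block, values ran from -1.32 to -0.97 (Csf1r), -0.48 to -0.28 (Adgre1), -0.46 to -0.081 (Cebpa), -0.19 to -0.11 (Spi1), -0.53 to -0.10 (Maf), -0.68 to -0.31 (Irf8), -1.22 to -0.057 (Klf4), 0.22 to 0.88 (Bhlhe40) and 0.82 to 1.07 (Bhlhe41). Genes called ran from 0 to 1658 higher and from 0 to 1275 lower by edgeR. The fits without the non-efferocytic library of Experiment 1 or of Experiment 2 called 0 genes higher and 2 or 0 lower, with 2999 and 3494 genes at an unadjusted p under 0.05.

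List counts changed in these settings. For CSF1R ligands and signalling, genes higher came to 1 without the block, with library totals, with genes of at least 10 CPM (17 tested) and with free RNA taken off (21 tested), and 10 per cell. Its genes lower came to 2, 3, 11, 2 and 0 (no block, DESeq2, library totals, per cell, free RNA), and with a library left out 0 to 2 were higher and 0 to 2 lower. For the other receptors, genes lower came to 1 (no block, DESeq2, per cell) and 0 (free RNA), 3 were higher per cell, and 0 to 1 were lower when a library was left out. For the other myeloid factors, genes higher came to 0 (no block, free RNA) and 4 (per cell), and genes lower to 11, 4 and 2 (no block, per cell, free RNA). Their median log2 difference was then -0.44, 0.18 and -0.48, beside -0.44 in the reported fit. With a library left out the median ran from -0.55 to -0.40. For surface and secreted genes, genes higher came to 10 (per cell) and 0 (free RNA), genes lower to 3, 14, 3 and 1 (no block, library totals, per cell, free RNA), and with a library left out 0 to 4 were higher and 0 to 6 lower. For clock genes, genes higher came to 3 per cell and 0 with genes of at least 10 CPM or free RNA taken off. Genes lower came to 5, 5, 1, 3 and 0 (no block, DESeq2, per cell, at least 10 CPM with 6 tested, free RNA with 14 tested). Their median was then -0.54, -0.54, 0.070, -0.26 and -0.59, beside -0.55 in the reported fit. With a library left out the median ran from -0.62 to -0.33. For immediate early and heat shock genes, 1 was higher with DESeq2, per cell, with no gene filter and with at most 5% mitochondrial UMIs. The same held without class II cells and in thinned cells. Genes lower came to 2 without the block or with free RNA taken off. The median of this list ran from -1.79 to -0.23 when a library was left out, beside -1.16 in the reported fit.

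Of the 46 other named genes, 3 reversed on 4 libraries, Il3ra (0.37) and Cd79b (0.087) per cell and Col3a1 (0.20) without the 5% of cells with the most UMIs, and Fosb ran from -3.71 to 0.37 with a library left out, the latter without that of non-efferocytic cells in Experiment 1. Unthinned, the mean difference in the share of positive cells was -0.82 points for Csf1r, 14.6 for Bhlhe40 and 35.2 for Bhlhe41, and reversed to 4.58 (Adgre1), 7.29 (Spi1), 9.20 (Cebpa), 5.15 (Maf) and 4.26 (Irf8). With n = 2 per group and 1 residual degree of freedom, 5 of the 7 calls of members rest on the block.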
